A study of Mus musculus with 36 samples.

Results

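The vomeronasal organ (VNO) libraries of sex-combined mice were compared by sex: 3 libraries from females (CF) and 3 from males (CM), chosen by their labels, out of 36 libraries in the series. The study profiled the main olfactory epithelium (MOE), the VNO and the olfactory bulb of mice kept with or without the opposite sex, to ask how sex and housing shape gene expression in olfactory tissues. The CF and CM mice were C57BL/6, were weaned at 3 weeks and shared cages of 2 females and 2 males until 6 months of age. The sex-separated females (SF) and males (SM) of the same strain and age, with 3 VNO libraries each, lived 4 to a cage with their own sex. They give the same difference under the other housing, and they entered the same fit, so the CF and CM tests share their spread and a filter on low values with them. Every cage thus held 4 animals.

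The mice carried no engineered allele and received no agent. Each library was a pool of RNA. The series' design text gives 2 mice per pool, whereas the methods give another number, so the number of mice behind each value was uncertain. The pools are biological replicates, and the p-values measure the spread between pools. Pups born in the combined cages were removed within a day, whereas the sex-separated mice could not breed. Which CF females had borne litters was not given, so sex within this housing and motherhood cannot be told apart. The whole VNO was lifted out together with the vomer bone to which it is attached, so the RNA came from neurons, supporting cells, glands, vessels, immune cells, cartilage and bone. In such bulk tissue a lower level can mean fewer cells of a type or less RNA per cell, and these cannot be told apart.

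The VNO is a tubular chemosensory organ at the base of the nasal septum that detects pheromones and other social cues. Its sensory neurons fall into an apical layer, which uses receptors of the V1R family with the G protein Gnai2, and a basal layer, which uses V2R receptors with Gnao1 and, in many cells, the H2-Mv class of MHC proteins. Both layers signal through the channel Trpc2. Bone is built by osteoblasts, which lay down type I collagen and mineral-binding proteins and become osteocytes as they are buried, and it is removed by osteoclasts, large cells of the macrophage lineage that secrete acid and proteases.

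Expression was deposited as FPKM, fragments scaled by transcript length and by the fragments mapped in a library, so values are levels per length. The estimated fragments that lay in genes numbered 4947390 to 6779893 in the CF libraries and 5879421 to 6419502 in the CM libraries. These estimates, made from the deposited confidence limits, lie below the numbers of aligned read pairs that the study gives. The female gene Xist (the RNA that silences 1 X chromosome) was at 18.0, 23.2 and 22.4 FPKM in CF and 0.0555, 0.0673 and 0.0391 in CM. The Y gene Ddx3y stood at 9.23, 8.56 and 9.49 FPKM in CM and had a listed value of 0 in every CF library. All 6 libraries thus matched their labelled sex. The marker of mature sensory neurons, Omp, lay at 116, 101 and 106 FPKM in CF and 113, 116 and 94.5 in CM, and Trpc2 at 47.0, 46.3 and 47.2 against 43.1, 50.4 and 41.6, so the tissue label held in both sexes and both genes overlapped between them.

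Differences were tested with limma on log2(FPKM + 0.5), on which scale the changes of low genes are understated, over 13849 genes with a mean of at least 0.5 FPKM in the 12 VNO libraries, of which 13410 were autosomal. No autosomal gene passed a Benjamini-Hochberg adjusted p of 0.05 between CF and CM, a share of 0.0%, and the lowest adjusted p was 0.0648. At an unadjusted p under 0.05, 312 autosomal genes were higher in CF (2.33%) and 202 were lower (1.51%), together 514 genes or 3.83%. This balance turned on single pools, with 256 higher and 343 lower without CF2 but 400 higher and 134 lower without CF3. Quantile normalization gave 325 higher and 275 lower. The 3 CF pools lay above the 3 CM pools for 715 autosomal genes (5.33%) and below them for 437 (3.26%). The median autosomal difference was 0.01 on the log2 scale. Gene counts below are therefore counts at the unadjusted threshold, are read against these shares, and name no gene as changed. The 6 genes of X and Y that did pass the adjusted threshold in limma were Xist and Kdm6a, higher in CF, and Ddx3y, Eif2s3y, Kdm5d and Uty, lower in CF.

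Among the 55 gene lists, leaving aside those of X and Y genes, the bone lists had the largest median differences between CF and CM, with genes of both bone-forming and bone-resorbing cells higher in females. Of 13 tested autosomal genes of osteoblasts and osteocytes, 13 had a higher mean in CF, 10 did so at an unadjusted p under 0.05 and none was lower at that threshold, against 2.33% of all autosomal genes higher. In 12 of the 13 the pools did not overlap, against 5.33% of all genes. Their median difference was 0.45 on the log2 scale, beside 0.01 over all autosomal genes. Of 5 tested osteoclast genes all 5 were higher in CF at the unadjusted threshold, all 5 without overlap, with a median of 0.56. Lists and their members were chosen with earlier results of these data known, so the rank of the bone lists is no independent result.

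**Figure D1:**
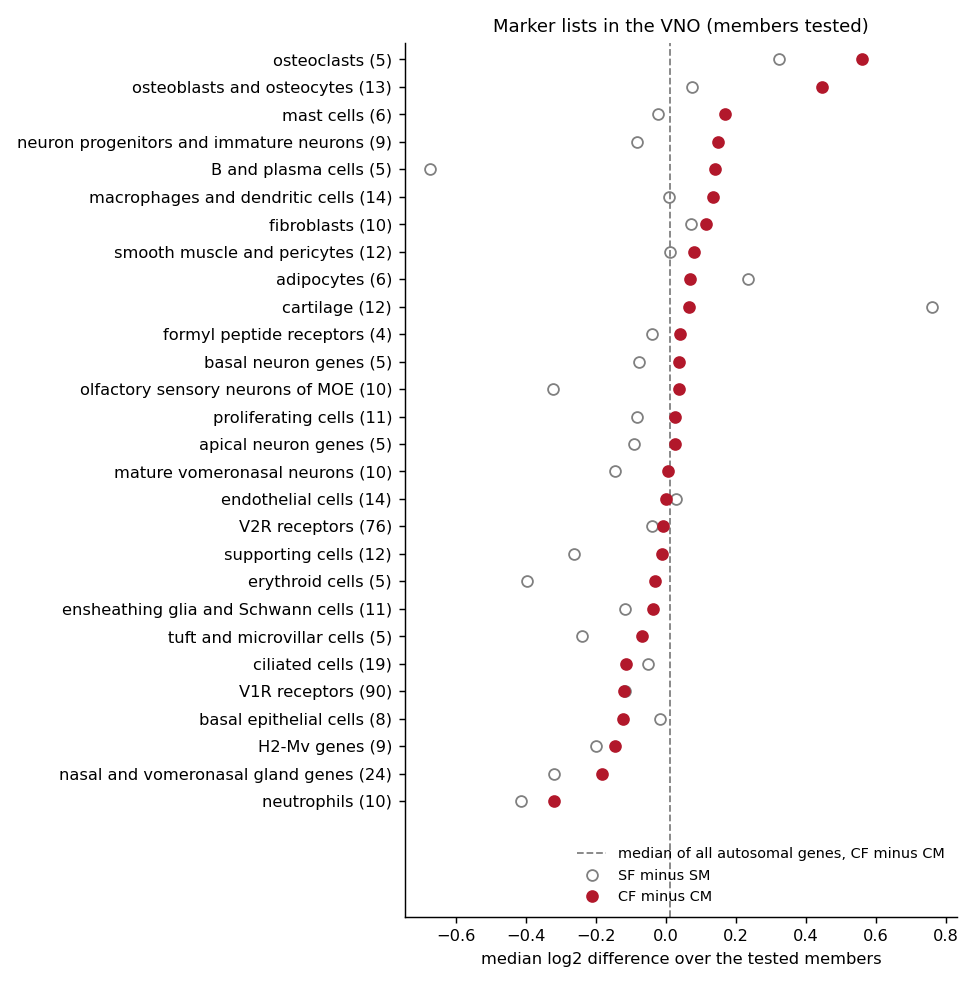
Median log2 difference between females and males over the tested members of each cell type marker list with at least 4 tested members in the VNO, for sex-combined mice (filled, CF minus CM) and sex-separated mice (open, SF minus SM); the dashed line is the median of all autosomal genes between CF and CM. The lists of osteoclasts (0.56) and of osteoblasts and osteocytes (0.45) lay farthest to the right for CF minus CM, and neutrophils (-0.32) farthest to the left.

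Ibsp encodes bone sialoprotein, a mineral-binding protein of the bone matrix (mm9 chr5:104728306-104740491). Its level was 77.2, 73.0 and 77.6 FPKM in the 3 CF pools and 59.8, 53.2 and 53.9 FPKM in the 3 CM pools. Every CF pool was above every CM pool, by 1.36-fold on average, a log2 difference of 0.45 (SE 0.085) with a Benjamini-Hochberg adjusted p of 0.210 in limma. Osteocalcin, the small calcium-binding protein that osteoblasts secrete, is made from the neighbouring genes Bglap and Bglap2. Bglap was at 58.8, 54.5 and 40.8 FPKM in CF and at 30.6, 24.6 and 34.1 FPKM in CM. Bglap2 was at 29.5, 27.2 and 27.2 FPKM in CF and 19.1, 14.6 and 17.4 FPKM in CM. Neither gene overlapped between the sexes, and the log2 differences were 0.77 (SE 0.19, limma adjusted p = 0.578) for Bglap and 0.71 (SE 0.14, limma adjusted p = 0.291) for Bglap2. Since both genes are near copies of each other, how reads were split between them is uncertain, and they count as 1 observation rather than 2.

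The promoters of Ibsp and Bglap are shown because every CF pool was above every CM pool for both genes. The windows are the 150 bases before the RefSeq start (RefSeq, GRCm38.p6, another build than that of the deposited loci), on chr5:104299137-104299286, plus strand, for Ibsp and chr3:88384467-88384616, minus strand, for Bglap. Capitals mark matches of the core motif of Runx factors, ACCACA, searched on both strands; Runx2 is the Runx factor that osteoblasts need. Bglap2 had no entry in the RefSeq table.
Ibsp: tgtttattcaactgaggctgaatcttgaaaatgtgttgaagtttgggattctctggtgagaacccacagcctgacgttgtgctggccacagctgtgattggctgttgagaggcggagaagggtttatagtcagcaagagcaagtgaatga
Bglap: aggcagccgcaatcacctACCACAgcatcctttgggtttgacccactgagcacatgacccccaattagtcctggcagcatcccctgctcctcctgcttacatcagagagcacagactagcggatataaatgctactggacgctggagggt
The printed Bglap window held 1 match and the Ibsp window none. Over 250 bases before the start, 5 of the 9 osteoblast and osteocyte genes with an entry held a match in at least 1 of their windows (Bglap, Dmp1, Mepe, Runx2 and Spp1), as did 0 of 2 osteoclast genes and 15.9% of all 27025 genes in the table. A match says only that these letters stand in the window.

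Spp1, which encodes osteopontin, another mineral-binding matrix protein, was at 251, 267 and 259 FPKM in CF and 201, 164 and 185 FPKM in CM. The pools did not overlap, and the log2 difference was 0.50 (SE 0.13). The osteocyte genes followed the same order. Dmp1, a matrix protein of osteocytes, was at 8.19, 7.79 and 8.83 FPKM in CF and 6.76, 4.33 and 4.74 in CM, and Sost, which encodes the Wnt inhibitor sclerostin, at 2.27, 2.38 and 2.78 against 1.83, 1.18 and 1.13. The log2 differences were 0.62 (SE 0.17) for Dmp1 and 0.68 (SE 0.19) for Sost, with all CF pools higher for both genes. For Alpl, the alkaline phosphatase that frees phosphate for mineral, the CF pools spanned 21.7 to 28.4 FPKM and the CM pools 16.6 to 19.6.

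The transcription factors of the osteoblast lineage were split. Sp7 (osterix) was at 4.71, 6.00 and 5.34 FPKM in CF against 3.67, 3.99 and 3.96 in CM, a log2 difference of 0.41 (SE 0.13). Runx2, which acts before Sp7, was the only one of the 13 genes whose pools overlapped, at 5.69, 7.34 and 6.02 FPKM in CF and 5.94, 6.05 and 5.58 in CM. The most abundant members were the chains of type I collagen, which fibroblasts make too. Col1a2 was at 491, 515 and 517 FPKM in CF and 382, 383 and 387 in CM, a log2 difference of 0.40 (SE 0.15). Col1a1 was at 352, 360 and 342 against 284, 305 and 316 FPKM, without overlap but with an unadjusted limma p of 0.124.

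Among the osteoclast genes, Acp5 encodes the tartrate-resistant acid phosphatase by which osteoclasts are stained. Its level was 47.0, 56.0 and 69.9 FPKM in CF and 38.9, 35.0 and 33.6 FPKM in CM. All CF pools were higher, by 1.61-fold on average, a log2 difference of 0.66 (SE 0.12, limma adjusted p = 0.179). Without the pool CF1, the lowest of the CF pools for all 5 osteoclast genes, the difference was 0.80 and the limma adjusted p 0.0313, the 1 of 21 alternatives under the threshold, over which the adjusted p ran from 0.0313 to 0.810. Ctsk, the collagen-degrading protease cathepsin K, was at 86.8, 106 and 116 FPKM in CF and 76.6, 65.2 and 66.0 FPKM in CM. Here too the pools stood apart, with a log2 difference of 0.56 (SE 0.13). Of the other members, Mmp9, a matrix protease, differed by 0.50, Atp6v0d2, a subunit of the proton pump, by 0.59, and Dcstamp, which osteoclasts need to fuse, by 0.56, the last from as few as 13.1 estimated fragments in a library.

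**Figure D2:**
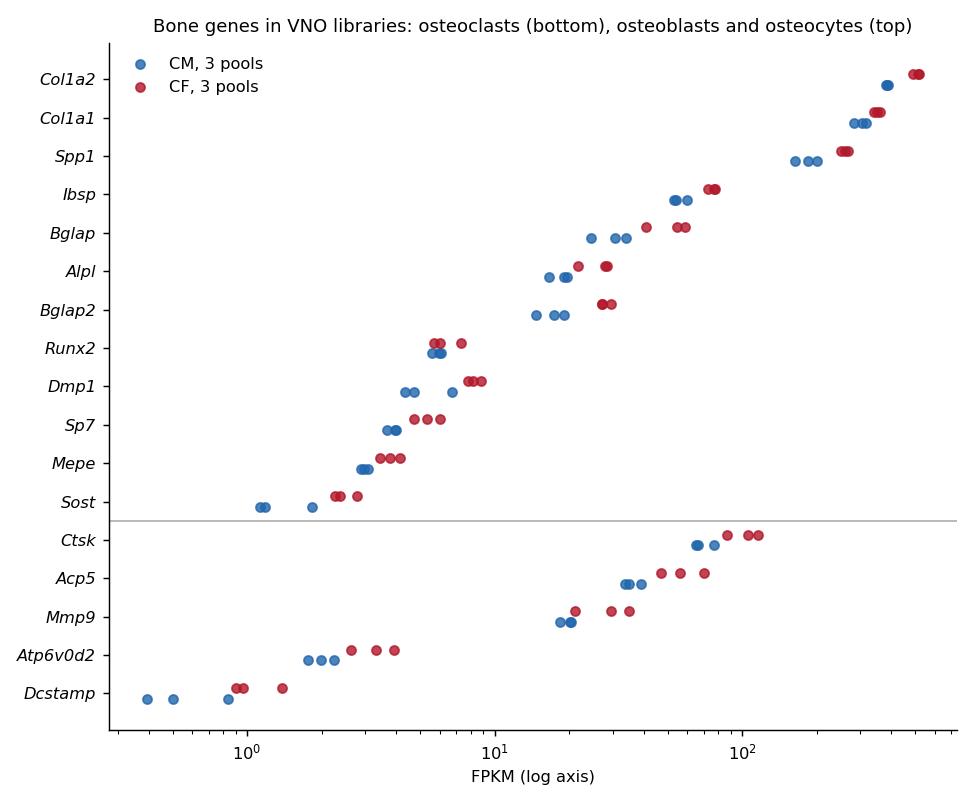
Level (FPKM, log axis) of 12 of the 13 tested osteoblast and osteocyte genes and the 5 tested osteoclast genes in the 3 CF pools (red) and the 3 CM pools (blue), 1 point per pool. The CF points lie to the right of the CM points for every plotted gene but Runx2, for which they overlap.

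Some other genes of bone that no list held were also higher in CF. They were chosen after their values were seen, out of more that were looked at, and so give no further support. Ostn, which encodes the peptide osteocrin, was at 0.854, 0.965 and 1.03 FPKM in CF and 0.259, 0.253 and 0.453 in CM, from at least 6 estimated fragments. Fgf23, the phosphate hormone that osteocytes release, was at 0.672, 1.41 and 0.729 against 0.266, 0.302 and 0.519 FPKM. Ifitm5, a membrane protein of osteoblasts linked to a form of brittle bone disease, was at 5.57, 4.92 and 4.53 against 3.42, 3.25 and 2.95 FPKM. Fam20c, the kinase that phosphorylates secreted matrix proteins, showed a log2 difference of 0.38 (SE 0.10), and Serpinh1, the chaperone of collagen, one of 0.46 (SE 0.13).

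In sex-separated mice the medians of both lists were smaller. The median difference of SF minus SM was 0.07 for the osteoblast and osteocyte genes and 0.32 for the osteoclast genes, beside -0.08 over all autosomal genes. Ibsp was at 61.0, 71.9 and 64.9 FPKM in SF and 56.3, 55.8 and 59.0 in SM, again with every female pool higher, and Ctsk at 82.0, 95.7 and 91.2 against 63.0, 74.6 and 77.2. The interaction of sex and housing was called for 0 autosomal genes in limma (0.0%), with 710 at an unadjusted p under 0.05. Of the 710, 643 had a difference of CF minus CM above that of SF minus SM, and 67 one below it. Quantile normalization gave 267 and 217, so this tilt depended on the scaling. The lowest limma adjusted p of the interaction among both bone lists was 0.895, so the lists were not shown to differ between housings. Summed over its members, the osteoblast and osteocyte list was at 1307, 1356 and 1322 FPKM in CF, 983 to 1030 in CM, 981 to 1270 in SF and 1066 to 1253 in SM. The CF pools were thus the highest of the 12, and the SF and SM pools overlapped. The osteoclast list was at 158 to 225 FPKM in CF, 122 to 137 in CM, 158 to 178 in SF and 125 to 139 in SM, so that the male pools lay below the female pools under both housings.

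The MOE of the same mice, which borders other nasal bones, gave values side by side. Its 13 osteoblast and osteocyte genes with a mean of at least 0.5 FPKM were all higher in CF than in CM, with a median log2 difference of 0.36, and its 5 osteoclast genes were too, with a median of 0.29, beside 0.10 over all autosomal genes of the MOE. In the olfactory bulb, a brain region, 7 and 1 of these genes reached that level, with medians of 0.05 and 0.36 beside -0.03. The bone lists were not alone in the MOE. All 18 genes of the unfolded protein response (median 0.09) and all 18 interferon-stimulated genes (0.15) were higher in CF there. Of 52 canonical histone genes 50 were, with a median of 0.37, while gland genes were split, with 11 of 21 higher. Since the methods have all tissues dissected from the same mice, the MOE is no independent sample of animals. How much bone came with each organ was not recorded, and its part in these differences was not tested.

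The other mesenchymal lists did not share the size of the bone lists. The 12 cartilage genes had a median of 0.07, with 1 at the unadjusted threshold, and cartilage differed most in 1 SF pool, whose summed level was 132 FPKM against 25.5 to 42.2 in the other 11 libraries. The 10 fibroblast genes had a median of 0.11, with 1 higher at the threshold, and the 36 collagen genes one of 0.05, with 6 higher and none lower. These medians were small beside the pull of single pools. Without CM1 they were -0.06 for cartilage, 0.06 for fibroblasts and -0.02 for collagens, and without CF1 0.17 for cartilage and 0.16 for collagens. Cartilage was also at -0.05 without CF2. Those 6 included Col22a1, the collagen gene with the smallest p. It encodes a collagen found at tissue junctions such as that of muscle and tendon. Its level was 4.01, 4.04 and 3.71 FPKM in CF and 2.50, 2.35 and 2.75 in CM, a log2 difference of 0.54 (SE 0.087, limma adjusted p = 0.0748). In CF it stood 1.55-fold higher and the pools did not overlap. The limma adjusted p was under 0.05 in 4 of 21 alternatives, among them 0.0362 without the pool SF1, and ran from 0.0221 to 0.478.

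Of 14 macrophage and dendritic cell genes, 11 had a higher mean in CF, 3 of them at the unadjusted threshold, and the median was 0.14. The summed level of the list did not follow this median. It was 223, 394 and 295 FPKM in CF and 371, 322 and 618 in CM, with overlap and with the highest value in a CM pool. Csf1r, the receptor for the growth factor that macrophages and osteoclasts share, was at 9.51, 11.1 and 11.6 FPKM in CF and 8.06, 8.39 and 8.11 in CM. The pools were apart, and the log2 difference was 0.37 (SE 0.095). Cd68, a lysosomal protein of macrophages, and C1qc, a complement subunit, were the other members at the threshold. Their log2 differences were 0.35 and 0.26, again without overlap. The neutrophil list had 9 of 10 genes lower in CF and a median of -0.32, but none passed the unadjusted threshold and its pools overlapped in the median level. That median was -0.61 without CM2, with 3 genes lower at the threshold, and -0.43 without CF3, with 2, but -0.15 without CM3 and -0.16 without CF1, with none. Its summed level was 1351 to 1583 FPKM in CF and 1600 to 1879 in CM, without overlap. Between SF and SM the neutrophil median was -0.41, beside -0.08 over all autosomal genes.

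**Figure D3:**
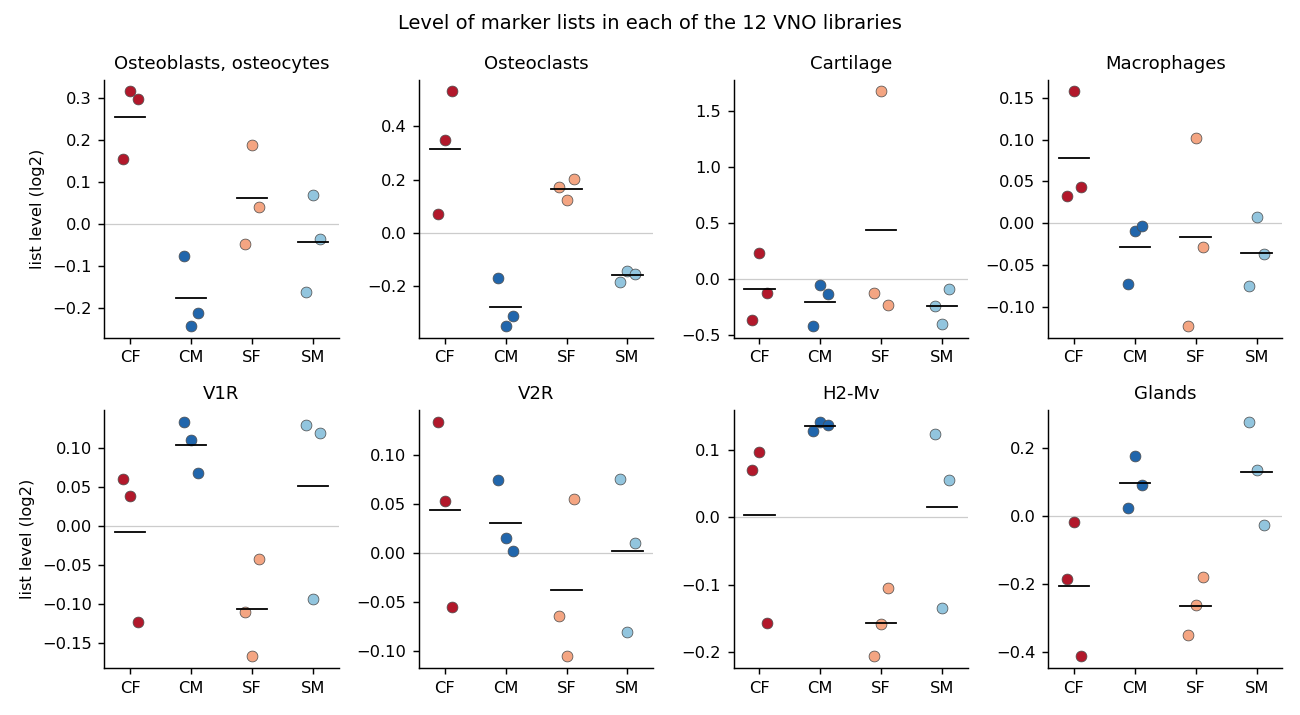
Level of 8 marker lists in each of the 12 VNO libraries, as the median over the tested members of log2(FPKM + 0.5) minus the gene's mean over the 12 libraries; each point is a pool and each line the mean of a group. The CF points lie above the CM points for both bone lists and for macrophages and below them for V1R, H2-Mv and gland genes, whereas they overlap for V2R and cartilage, where 1 SF pool stands apart.

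The sensory machinery itself differed little. The 10 mature neuron genes had a median difference of 0.00, the 5 apical and 5 basal neuron genes 0.02 and 0.04, and the 17 genes of vomeronasal transduction -0.01, with 0 of these at the unadjusted threshold. With 1 CF or CM pool left out these 4 medians lay between -0.07 and 0.08. The 9 tested genes of neuron progenitors and immature neurons had a median of 0.15, with 2 higher at the threshold. Without CM2 these were 0.24 and 4 genes, and without CF1 or CM3 0.10 and none. Gng8, a G protein subunit of immature vomeronasal neurons, was at 11.2, 9.34 and 9.63 FPKM in CF and 8.69, 7.48 and 5.94 in CM, while proliferation genes had a median of 0.02 over 11. The 10 tested genes of MOE sensory neurons gave a median of 0.04.

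Of 90 tested V1R receptor genes, 68 had a lower mean in CF, and the median was -0.12. At the unadjusted threshold 8 were lower and 2 higher, shares of the list that compare with 1.51% and 2.33% of all autosomal genes. Without CF3 the median was -0.07, with 4 lower. Between SF and SM the V1R median was -0.12, beside -0.08 over all autosomal genes. The 76 autosomal V2R genes were evenly spread, 37 higher and 39 lower in CF, with a median of -0.01, of which 6 were lower and 2 higher at the threshold. Of the 4 formyl peptide receptors that could be tested, 2 were higher and 2 lower, with Fpr-rs3 lower at the threshold (log2 difference -0.29).

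**Figure D4:**
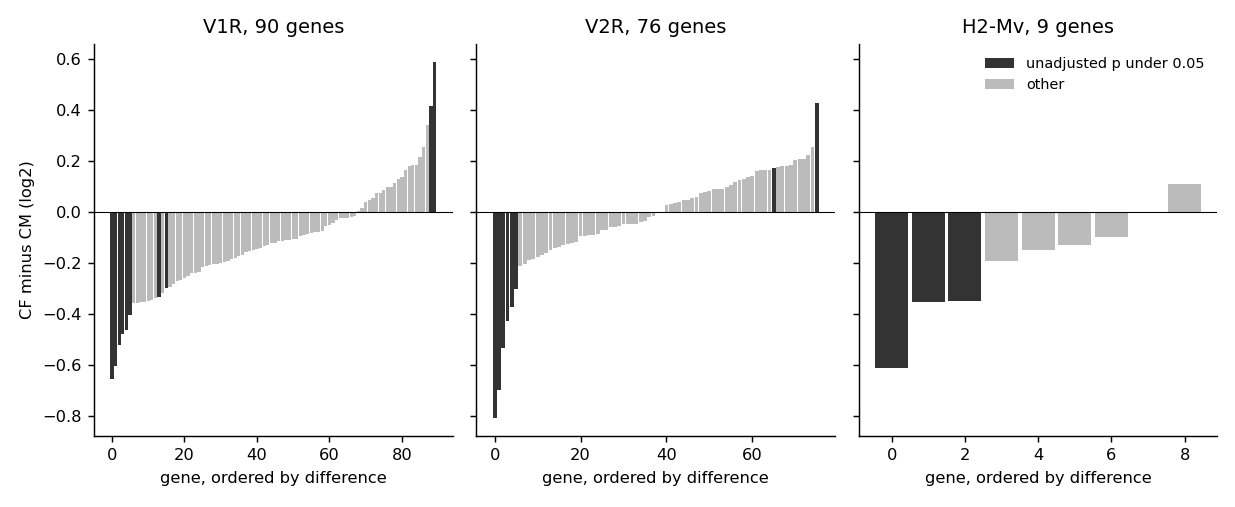
Log2 difference of CF minus CM for each tested V1R, V2R and H2-Mv gene, ordered by size; dark bars have an unadjusted p under 0.05. Most V1R bars (68 of 90) and H2-Mv bars (8 of 9) lie below 0, whereas V2R bars are split between 37 above and 39 below.

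Vmn1r89, a V1R gene, had the highest level among the receptors named here, at 12.2, 12.7 and 11 FPKM in CF and 19.2, 17.1 and 14.4 FPKM in CM. The CF pools were all lower, by 0.48 on the log2 scale (SE 0.11, limma adjusted p = 0.440). In SF it was lower still, at 8.85, 9.35 and 8.25 FPKM, with SM at 15.3, 14.1 and 17.1. The V2R genes with the smallest p were low and counted on few fragments. Vmn2r49 was at 0.375, 0.267 and 0.132 FPKM in CF and 0.991, 0.661 and 0.813 in CM, from as few as 7 estimated fragments, and Vmn2r74 at 0.604, 0.611 and 0.382 against 1.08, 1.21 and 1.21. For Vmn2r81 the CF pools were at 1.10, 1.12 and 0.975 FPKM and the CM pools at 2.22, 1.46 and 1.65. In all 3 genes the pools were apart and CM was higher. Receptor genes share sequence with close paralogs, so reads between copies may have been split unevenly.

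The H2-Mv genes, which are expressed with V2R receptors in basal neurons, were lower in CF for 8 of 9 members, with a median of -0.15 and 3 at the unadjusted threshold. H2-M9 was at 2.09, 1.72 and 1.40 FPKM in CF and 2.81, 2.88 and 2.97 FPKM in CM, a log2 difference of -0.61 (SE 0.14, limma adjusted p = 0.453). The CF pools did not reach the CM pools. H2-M1 and H2-M10.4 were also apart, each with a log2 difference of -0.35, while H2-M10.5, the most abundant member, went the other way with 24.1, 23.0 and 18.9 against 21.9, 20.0 and 19.1 FPKM. Without CF3 or without CM2, 1 member was at the threshold. Between SF and SM the list had a median of -0.20, beside -0.08 over all autosomal genes.

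Most genes of the secretory and surface epithelia had lower means in CF, with wide spread between pools. Of 24 gland genes, 20 had a lower mean in CF, with a median of -0.18 and 2 at the threshold. Without CM1 the median was -0.34, and the members at the threshold numbered 4 without CF2 and 0 without CF1 or CF3. Between SF and SM the gland median was -0.32, beside -0.08 over all autosomal genes. The summed level of the gland list overlapped, at 39540 to 52050 FPKM in CF and 44440 to 53470 in CM. Aqp5, the water channel of serous glands, was at 33.0, 34.8 and 33.0 FPKM in CF and 38.2, 40.0 and 36.8 in CM, without overlap. The most variable secreted proteins did overlap, Bpifb1 with 148, 334 and 146 FPKM in CF and 417, 216 and 788 in CM, a gene chosen after its values were seen. Of the ciliated cell genes 17 of 19 were lower in CF, with a median of -0.11, and of the basal epithelial genes 7 of 8, with a median of -0.12, none of them at the threshold. The ciliated median was -0.20 without CF2 and -0.19 without CM2, but -0.03 without CF3 and -0.04 without CF1 or CM3. The basal epithelial median was -0.35 without CF2 and -0.26 without CM1, but -0.04 without CF1 or CM3 and -0.06 without CF3 or CM2. The 12 supporting cell genes had a median of -0.01, which was -0.19 without CM1, -0.15 without CF1 and 0.06 without CF3.

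Genes of steroid signalling gave few differences. Of 19 autosomal genes for steroid receptors and steroid metabolism, 12 were higher and 7 lower in CF, and the 1 at the unadjusted threshold was Srd5a3, a polyprenol reductase of the steroid reductase family, which was lower at 3.07, 2.97 and 2.11 against 3.40, 3.40 and 3.57 FPKM. The estrogen receptor gene Esr1, named after its values were seen, overlapped, at 1.27, 1.44 and 1.27 against 1.03, 1.14 and 1.39 FPKM. The 14 immediate early genes had a median of 0.09, with none at the threshold. Of 19 chemokine genes 3 were lower at the threshold, Ccl11, Ccl25 and Cxcl17, and none was higher. Without CM2 5 were lower, and without CF2, CM1 or CM3 2 were.

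Among the lists of general cell functions, 42 of 53 canonical histone genes had a higher mean in CF, with a median of 0.17 and 3 at the threshold, but the pools overlapped. The histone values moved with single pools, to a median of 0.01 and 1 gene at the threshold without CM1, 0.11 and 2 genes without CF2, and 0.32 and 15 genes without CM2. Of 85 genes of oxidative phosphorylation 63 were higher, with a median of 0.06, 3 higher and 1 lower at the threshold, but the median was -0.01 without CF2 or without CM1 and 0.12 without CF3 or without CM2. Of 21 imprinted genes 2 were higher at the threshold. One was H19, a maternally expressed growth-related RNA, at 1.48, 1.56 and 1.95 FPKM in CF and 0.643, 0.902 and 0.998 in CM. Of 8 tested X genes that escape inactivation 7 were higher in CF at the unadjusted threshold and the 4 Y genes were lower. The other 25 lists, with 412 member entries, had medians from -0.14 (keratins and cornified envelope) to 0.17 (mast cells), with 10 entries higher and 12 lower at the unadjusted threshold.

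The genes with the smallest p among those higher in CF, outside the 2 bone lists, included Aldh1a2, which makes retinoic acid. It was at 3.29, 3.47 and 3.42 FPKM in CF and 2.31, 2.19 and 2.44 in CM, a log2 difference of 0.47 (SE 0.083, limma adjusted p = 0.154) with no overlap. Edil3, an integrin-binding matrix protein, was at 4.88, 5.40 and 5.24 against 3.67, 3.21 and 3.63 FPKM, a difference of 0.50 (limma adjusted p = 0.110). Lrp4, a receptor that binds sclerostin and agrin, was at 8.03, 9.15 and 8.98 against 5.77, 6.65 and 5.96 FPKM. Gcnt3, which branches mucin glycans, was at 3.60, 3.77 and 3.36 against 2.01, 2.57 and 2.29 FPKM. The pools of Ank, which governs export of the mineral inhibitor pyrophosphate, Slc37a2, a sugar phosphate transporter, and Cercam were apart too, with log2 differences of 0.32, 0.52 and 0.43.

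Among genes lower in CF, Sel1l3 had the smallest p, with 10.08, 10.9 and 9.62 FPKM in CF and 13.9, 15.2 and 14.8 FPKM in CM. Every CF pool was below every CM pool, at 0.698 of the male mean, a log2 difference of -0.50 (SE 0.078, limma adjusted p = 0.0648). Over 21 alternatives its adjusted p ran from 0.00120 to 0.469 and was under 0.05 in 4, among them 0.0416 without the pool SF1. A2m, a protease inhibitor of the blood, was at 0.784, 0.848 and 0.921 FPKM in CF and 1.40, 1.46 and 1.62 in CM. B4galnt2, an enzyme that adds N-acetylgalactosamine to glycans, was at 12.9, 12.6 and 10.9 against 17.3, 17.5 and 16.2 FPKM. Gad1, which makes the transmitter GABA, was at 1.18, 1.23 and 1.03 FPKM in CF and 1.63, 2.09 and 1.57 in CM, a log2 difference of -0.46 (SE 0.13). In these genes too no CF pool reached a CM pool. The others named by the rule were Sugp1, a splicing protein (-0.45), Upk1b, a uroplakin of epithelial surfaces (-0.83), Serinc2 (-0.29), Ggta1, which makes the alpha-gal epitope (-0.32), and Pcdh10, a neuronal adhesion protein (-0.58), each given as its log2 difference.

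Averaging the female minus male difference over both housings, which uses the CF and CM pools again, gave 10 autosomal genes with a limma adjusted p under 0.05 (0.0746%), 4 higher and 6 lower in females, and 888 at an unadjusted p under 0.05. Lower in females were Sel1l3 (mean log2 difference -0.57, limma adjusted p = 0.000608), Vmn1r89 (-0.63, adjusted p = 0.00563), Gad1 (-0.66, adjusted p = 0.0132), B4galnt2 (-0.58, adjusted p = 0.0180) and the chemokine gene Ccl25 (-0.58, adjusted p = 0.0354). Dnase1, a secreted DNA-degrading enzyme, was called lower as well, but it was listed at 0 in all 3 CF and 2 of 3 SF libraries and at 5.25 to 11.3 FPKM in CM, so no fold is given. Higher in females were Aldh1a2 (0.43, adjusted p = 0.0132), the osteoclast gene Acp5 (0.55, adjusted p = 0.0354), Col22a1 (0.39, adjusted p = 0.0354) and Retnla (0.83, adjusted p = 0.0440). Retnla, a secreted protein of alternatively activated macrophages, rested on as few as 1 estimated fragment. In each of these 10 genes all CF pools lay on the same side of all CM pools and all SF pools on the same side of all SM pools. The 10 genes were picked by the values of these same pools, so this order gives no further support. Over all 13410 autosomal genes, 36 were higher and 89 lower in females without overlap under both housings. With 1 library left out at a time the count ran from 4 (without SM1) to 12 (without CF2), and Sel1l3, Vmn1r89 and Dnase1 stayed under the threshold in all 20 alternatives run for this comparison. Gad1 did so in 18 of 19, Aldh1a2 in 15 of 20, B4galnt2 in 13 of 20, Acp5 in 9 of 20, Col22a1 in 7 of 20, Retnla in 7 of 19 and Ccl25 in 6 of 20. With the replicate number as a block none of the 4 genes higher in females passed, nor did B4galnt2 or Ccl25, with limma adjusted p from 0.130 to 0.228. The 888 genes at the unadjusted threshold split into 220 higher and 668 lower in females, but 460 and 467 with quantile normalization. Without SF1, the VNO library with the fewest estimated fragments (3373400), the split was 400 and 508.

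**Figure D5:**
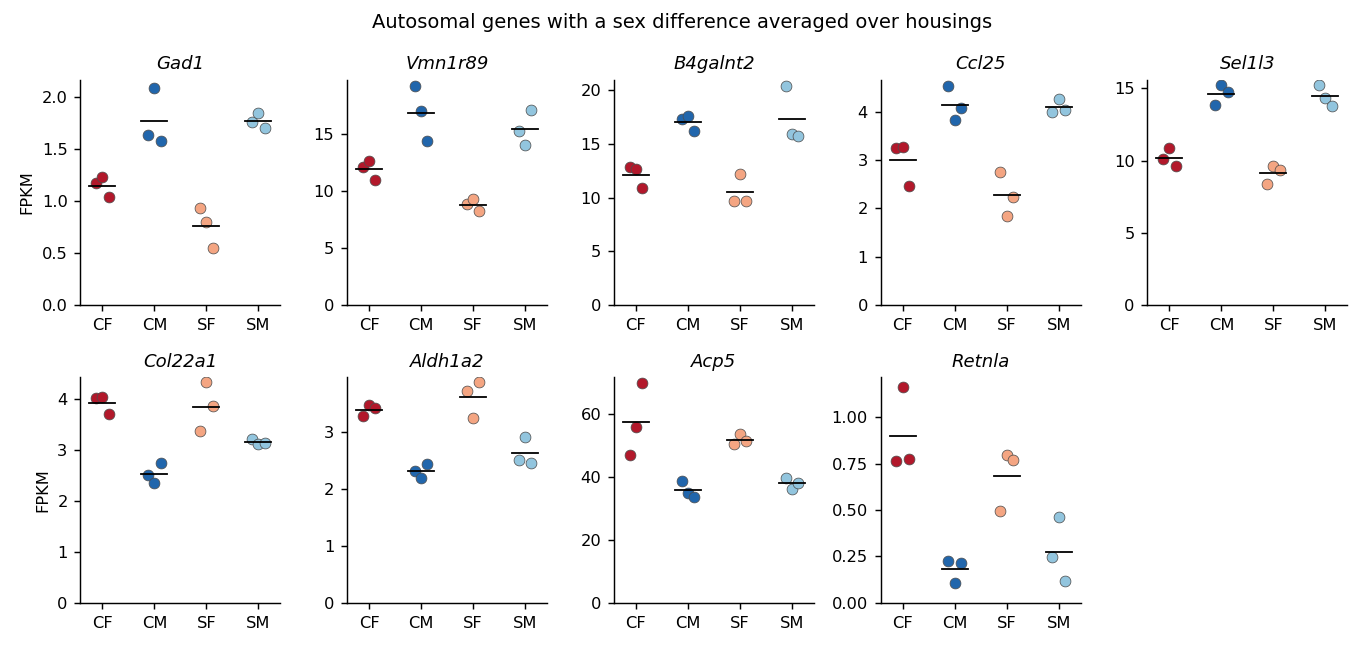
FPKM of the 9 autosomal genes with no library at 0 that had a sex difference averaged over housings, in each of the 12 VNO libraries; each point is a pool and each line the mean of a group. Gad1, Vmn1r89, B4galnt2, Ccl25 and Sel1l3 are lower in both female groups than in the males of the same housing, and Col22a1, Aldh1a2, Acp5 and Retnla are higher.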

How the data were processed

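The authors aligned stranded total RNA reads (2 lanes per library, ribosomal RNA depleted) with TopHat2 2.1.0 to mm9 and computed FPKM with Cufflinks 2.2.1.0, per the labels. The deposited FPKM values carry 95% confidence limits and were not rescaled. Entries were matched to symbols by RefSeq accession (99.7% of 40008) and summed by gene, leaving out 1 gene with a failed entry. Fragments were estimated from the limits, which describe 1 library each and not the spread between pools. Of the genes tested, 242 were listed at 0 in some VNO library.

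All 12 VNO libraries and 4 groups entered 1 fit in limma 3.58.1 (R 4.3.3, trend) on log2(FPKM + 0.5), with Benjamini-Hochberg adjustment over all genes tested. Lists are described by counts and medians and were not tested as sets. Members and lists were chosen with earlier results of these data known. Named genes had at least 20 estimated fragments in every CF and CM library, no value of 0 and no overlap: the 12 with the smallest p in each direction, and the 2 with the smallest interaction p. Up to 3 members of a list and 4 receptors with the smallest p were named without these filters. Same-numbered CF and CM libraries did not deviate together (correlations 0.0157, -0.0370 and 0.0983), so the main fit had no block. Other steps ran in Python 3.11.15 (numpy 2.4.6, pandas 2.3.3) and plots in matplotlib 3.10.9. Values of 2 genes are not reported here.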

Additional observations from a re-analysis of the deposited data

Results flagged for a closer look

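Pdgfa, which encodes a growth factor chain, went opposite ways under the 2 housings. It was at 5.66, 6.64 and 6.00 FPKM in CF and 4.57, 4.99 and 4.84 in CM, with all CF pools higher, but at 4.43, 4.53 and 4.78 in SF and 5.41, 6.30 and 5.56 in SM, with all SF pools lower. The interaction was 0.61 on the log2 scale (SE 0.11), with an unadjusted limma p of 0.000164 and an adjusted p of 0.895, and so did not pass. Selenow, a small selenoprotein, showed the same pattern, with 29.9, 26.4 and 26.8 FPKM in CF, 23.1, 21.3 and 20.6 in CM, 16.7, 20.3 and 21.3 in SF and 23.6, 23.3 and 24.1 in SM. Its interaction was 0.63 (SE 0.13), with an unadjusted limma p of 0.000496 and an adjusted p of 0.895. Both were taken for the smallest interaction p among genes whose CF and CM pools did not overlap. Their direction was that of 643 of the 710 autosomal genes at an unadjusted limma p of the interaction under 0.05. With quantile normalization it was that of 267 of 484.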

How the results depend on the processing

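The alternatives were pseudocounts of 0.1 and 1, no filter, a minimum mean of 2 FPKM, quantile and upper quartile scaling, library weights, only the 6 CF and CM libraries, the replicate number as a block within housing, and each of the 12 libraries left out.
Between CF and CM, autosomal genes under an adjusted p of 0.05 numbered 0 in the reported limma fit (514 at an unadjusted p under 0.05). They numbered 1 without a filter, 2 with quantile and 2 with upper quartile scaling (Sel1l3 and Col22a1 in both), 3 with library weights (these and Dnase1), and 5 with only the 6 libraries, which have fewer residual degrees of freedom, none of them a bone gene. Leaving out 1 library gave 0 to 2, with 2 without SF1, CF1 or CF2 and 1 without SF2, CM1 or CM2. At an unadjusted p under 0.05 the count was 813 without a filter and 342 at the higher minimum, for more and fewer genes tested. The interaction gave 1 call without a filter and 0 to 3 with 1 library left out, 3 of them without CF2 and 1 each without SF1, SF2, CM1 or CM2. The sex difference averaged over housings gave 10 calls, 19 with library weights and 6 with the replicate block, 4 of which were among the 10. With 1 library left out it gave 4 to 12, with 4 without SM1, 5 without SF3, CM2 or CM3, and 6 without SM3. The causes were not tested.
The replicate block left the count between CF and CM at 0 (516 at an unadjusted p under 0.05). The same-numbered libraries share only a number.
The CF minus CM medians of both bone lists ran from 0.41 to 0.50 for osteoblasts and osteocytes and from 0.47 to 0.70 for osteoclasts. Members at the unadjusted threshold numbered 9 to 11 and 4 to 5. The block, the fit of only the 6 libraries and leaving out an SF or SM library cannot move these medians. Since the pools of 12 of the 13 and of all 5 genes were apart, leaving out 1 CF or CM pool could not turn the sign. The bone medians of SF minus SM, the MOE and the olfactory bulb were not rerun. Medians of several other lists moved with single CF or CM pools, as given beside them. V1R medians lay between -0.17 and -0.07. Runx2 turned from 0.10 to -0.00082 without CF2, and lay at up to 0.17 with another library left out. The median of all autosomal genes stayed between -0.01 and 0.03. Depth limits the receptors of low level, some with 7 estimated fragments in a library, and 3 pools per sex limit all comparisons.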
